A study of Mus musculus with 2 samples.

Results

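Acute phase plasma proteins are secreted by the liver into blood, where their levels shift when tissue is injured or infected. The 10 genes described here encode 4 kinds of them: the serum amyloid A proteins Saa1, Saa2, Saa3 and Saa4, the orosomucoids Orm1 and Orm2, the scavengers haptoglobin (Hp) and hemopexin (Hpx), and the pattern-binding proteins Lbp and Apcs. They were chosen as a fixed list of symbols, and every probe set that the platform annotation assigns to exactly 1 gene of the list was taken. All 10 genes had such a probe set, 13 in total, among the 18193 genes that own a probe set on the array. No probe set shared between several genes named a member.

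In hepatocytes, interleukin 6 acts through the receptor chains Il6ra and Il6st (gp130) and the transcription factor Stat3, and interleukin 1 and tumour necrosis factor act through NF-kB and C/EBP factors, to switch on acute phase genes. Hepatocytes are the main source of Saa1, Saa2, Orm1, Hp, Hpx, Lbp and Apcs in plasma, whereas mouse Saa3 is known mainly from macrophages, adipocytes and other cells outside the hepatocyte lineage. Saa4 is the constitutive serum amyloid A of resting liver, and many of the inducible genes reach high levels only after birth or in inflammation.

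The study compared whole liver of mouse embryos at E14.5 from wild-type mice with liver of the genotype Prox1 f/f;Foxa3Cre, a conditional knockout of the homeodomain factor Prox1 that is named below as the knockout. Both samples carry the strain label NMRI/C57Bl6. Foxa3 is active in endoderm, so the Cre recombinase that it drives acts in hepatoblasts and other endodermal cells, while blood, vessel and mesenchymal cells of the liver are outside that lineage. Each genotype was measured on 1 single-colour Affymetrix array, so each value rests on 1 array, differences are between these samples, and no test, SD or p-value between genotypes is given. The sources used here do not say how many embryos entered each RNA sample.

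Values are MAS5 signals, a linear intensity scaled to the same trimmed mean on both arrays. A floor was set at a signal of 112.6, the higher of the medians of the arrays, and a gene counts as measured on an array where it lies above it. Differences are log2 of knockout minus wild type. Prox1 itself went from 340.3 in wild type to 221.8 in the knockout (log2 difference -0.62), and its other probe sets from 205.9 to 111.8 and from 175.4 to 66.7; whether they lie in the removed part of the gene is not known here, so they do not check the deletion. Markers of the labelled tissue were present: 18 of 19 hepatocyte marker genes with a probe set were measured, Alb at 32396 and 33186. Sex-linked genes separated the samples as well: Xist had a signal of 11467 against 366 in the knockout, and Eif2s3y 0.87 against 1972 (both genes were chosen after their values were seen). Sex and genotype cannot be told apart in these arrays.

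Because the serum amyloid A genes went in opposite directions, their promoter sequences are shown with those of Hpx and Apcs, members that differed little. The sequences come from RefSeq on GRCm38.p6 and cover the 250 bases before a transcript start, 5′ to 3′ on the strand of the gene. The Saa3 stretch lies at chr7:46715677-46715926, Saa4 at chr7:46732604-46732853, Hpx at chr7:105600117-105600366 and Apcs at chr1:172895055-172895304, all on the minus strand. The table's start of Saa3, like that of Saa1, lies inside the annotated gene span, so an earlier start exists. Capitals mark matches to the motifs described next.
Saa3: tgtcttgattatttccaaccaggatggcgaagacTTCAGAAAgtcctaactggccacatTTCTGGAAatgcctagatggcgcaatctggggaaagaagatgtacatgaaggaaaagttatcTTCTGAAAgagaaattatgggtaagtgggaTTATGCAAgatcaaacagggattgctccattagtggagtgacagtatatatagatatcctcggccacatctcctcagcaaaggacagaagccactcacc
Saa4: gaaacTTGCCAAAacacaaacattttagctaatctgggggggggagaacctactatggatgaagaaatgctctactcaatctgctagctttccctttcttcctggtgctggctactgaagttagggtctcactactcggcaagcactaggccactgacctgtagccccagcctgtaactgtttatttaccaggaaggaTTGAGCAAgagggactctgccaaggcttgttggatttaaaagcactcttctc
Hpx: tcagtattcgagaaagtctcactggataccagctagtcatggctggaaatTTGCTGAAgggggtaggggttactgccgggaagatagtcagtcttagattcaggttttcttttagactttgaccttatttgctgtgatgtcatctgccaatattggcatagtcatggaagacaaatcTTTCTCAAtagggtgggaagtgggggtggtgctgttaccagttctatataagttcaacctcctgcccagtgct
Apcs: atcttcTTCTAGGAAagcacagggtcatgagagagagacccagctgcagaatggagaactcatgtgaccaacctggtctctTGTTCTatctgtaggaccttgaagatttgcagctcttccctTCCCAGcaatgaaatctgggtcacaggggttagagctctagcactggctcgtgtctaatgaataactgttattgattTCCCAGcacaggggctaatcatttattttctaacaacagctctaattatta

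The motifs were searched on both strands of a window of 300 bases, the printed 250 and the 50 after the start, and the matches in the members did not overlap one another. Of the 10 members, 7 had a promoter in the table: Saa1, Saa2, Saa3, Saa4, Orm2, Hpx and Apcs. The C/EBP pattern TTNNGNAA matched in 6 of these 7 promoters, all but Apcs, and in 40.7% of 32544 distinct windows of the same length in the table. Saa3 had 4 C/EBP matches, at positions -216, -191, -129 and -99 from the start, Saa4 had 2, at -245 and -52, and Hpx had 2, at -200 and -73. The STAT pattern TTCNNNGAA matched in Apcs alone among the members, at -244, and in 8.33% of all windows. The interleukin 6 response core CTGGGA matched 3 times in Apcs, at -128, -51 and 18, and once in Saa3, at 6, and in 31.8% of all windows. The glucocorticoid receptor pattern TGTTCT matched in Apcs and Orm2 (18.9% of all windows) and TATAAA in Orm2 (13.6%). No member window held the NF-kB pattern (8.49% of all windows) or the HNF4 patterns CAAAGTCCA (0.479%) and CAAAGGTCA (0.482%), which says only that these letters are not in these windows. The windows of Saa1 and Saa2 were 95.3% identical, 287 of 301 alignment columns, while those of Saa3 and Saa4 were 42.7% identical.

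**Figure D1:**
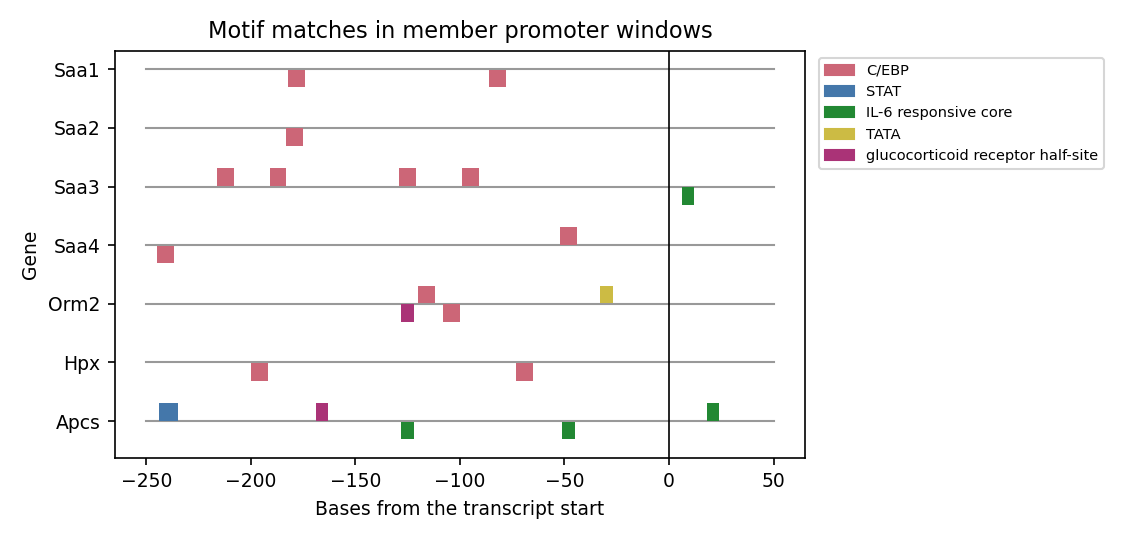
Motif matches in the promoter windows of the 7 members with a promoter in the RefSeq table, plotted by distance in bases from the transcript start (x axis) for each gene (y axis). Bars above a line are matches on the strand of the gene and bars below it on the other strand. Saa3 has 4 C/EBP matches, Saa4 and Hpx have 2 each and Apcs has none.

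Of the 10 members, 6 were measured, each on both arrays, and they lay in both directions. Saa4 and Lbp were at least 2-fold lower in the knockout, Saa3 was at least 2-fold higher, and Hpx, Apcs and Hp lay between. Across the 11397 genes measured on at least 1 array, 2.13% were at least 2-fold lower and 3.27% at least 2-fold higher. The median log2 difference of the 6 measured members was -0.34, against 0.03 over all measured genes, with 4 members below 0 and 2 above. The members spanned 4.09 log2 units, from -2.45 for Saa4 to 1.65 for Saa3. Neither orosomucoid was measured, nor Saa1 or Saa2, so the median is not one of the whole list.

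**Figure D2:**
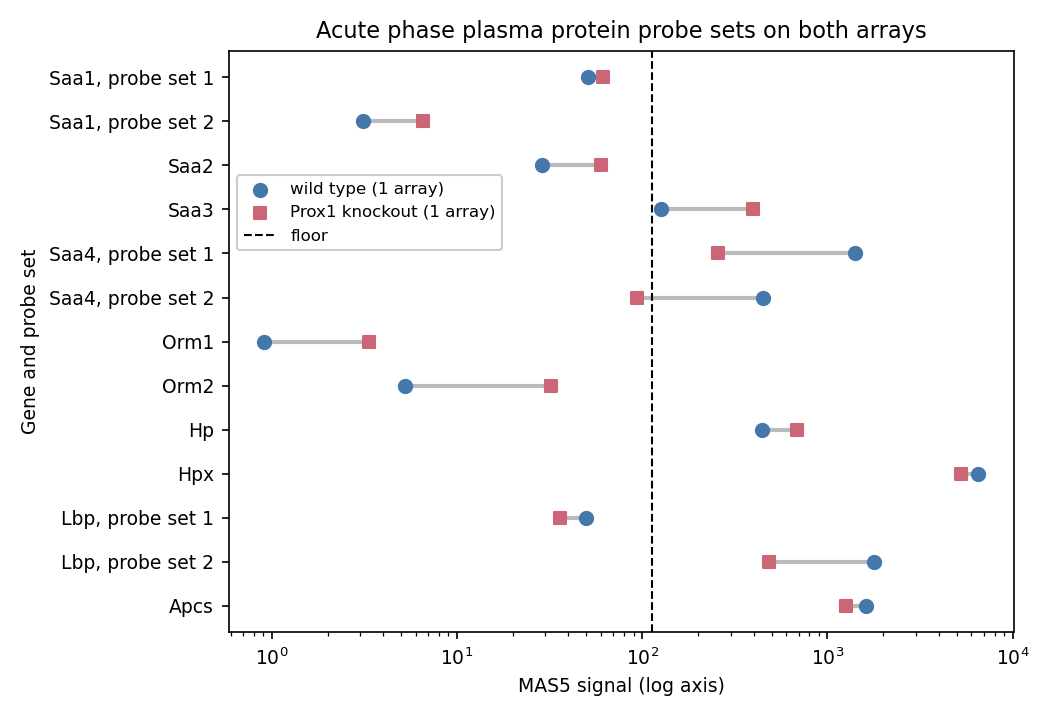
MAS5 signal (x axis, log scale) of each of the 13 probe sets of the 10 genes (y axis) on the wild-type array (circles) and the knockout array (squares), with the floor of 112.6 as a dashed line. Probe sets of a gene are numbered in the order of their names. Both Saa4 probe sets and the brighter Lbp probe set lie lower in the knockout, Saa3 lies higher, and the probe sets of Saa1, Saa2, Orm1 and Orm2 lie left of the line on both arrays.

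Saa4, the constitutive serum amyloid A carried on high-density lipoprotein, was the lowest member. Its brighter probe set gave 1405 in wild type but 258 after knockout, 5.45-fold lower. The other gave 447 and 94.4, the latter below the floor, and was therefore at least 3.97-fold lower. Both probe sets thus stood lower in the knockout, the second by an amount known only as a bound. Among 10221 genes measured on both arrays the Saa4 difference was the 23rd lowest. Of 2287 other genes within 0.5 log2 units of the same mean signal, 8 were as low or lower, and the middle 95% of them ran from -0.996 to 1.04.

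Saa3, the serum amyloid A form associated with macrophages and adipocytes, went the other way. Its wild-type signal was 126.3, just above the floor, and its knockout signal 395, which is 3.13-fold higher, or 1.65 in log2. This was the 49th highest difference among genes measured on both arrays. Its signal is in the dim range, where 1834 other genes of like signal had a median of 0.13 and a middle 95% from -0.92 to 1.23, and 11 were as high or higher. Saa3 rests on 1 probe set. With the floor at the 60th percentile of signals, the wild-type signal of Saa3 lay below it. That left a bound of at least 1.05 in log2, itself only just past 2-fold.

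Saa1 and Saa2, the inducible serum amyloid A proteins of inflammation, were below the floor on both arrays. The Saa1 probe sets read 50.9 and 3.11 in wild type and 61.5 and 6.52 in knockout liver. Saa2 read 28.8 in wild type and 60.1 in knockout liver. No fold is given for signals this low. The naming of these probe sets is also uncertain: the brighter one assigned to Saa1 was designed from a transcript that the RefSeq table lists under Saa2, so the annotation and the table give it different genes. Both it and the Saa2 probe set carry name endings that Affymetrix uses for probes shared with similar transcripts.

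Lbp, the plasma protein that hands bacterial lipopolysaccharide to Cd14, was the other member at least 2-fold lower. Its signals were 1786 (wild type) and 483 (knockout), 3.70-fold lower or -1.89 in log2, the 48th lowest among genes measured on both arrays. Of 2217 other genes of like signal, 14 were as low or lower. A second Lbp probe set read 50.1 and 36.1, below the floor on both arrays, and gives no difference.

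Apcs, serum amyloid P, is a pentraxin that binds amyloid fibrils and nuclear debris. It read 1621 in wild type and 1261 in knockout liver, 1.29-fold lower, and its log2 difference of -0.36 lay within the middle 95% of genes of like signal, -0.71 to 0.82. Crp, the related pentraxin, is the nearest gene with a probe set on its side of Apcs on chromosome 1. It read 1786 and 877, 2.04-fold lower. With 50 added to each signal in place of the floor, Crp was just under 2-fold, at -0.99.

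The scavengers of free haemoglobin and heme lay within 2-fold. Hpx, which carries heme to the receptor Lrp1, read 6541 in wild type and 5259.6 in knockout liver, 1.24-fold lower and the brightest member. Its log2 difference of -0.31 compares with a middle 95% from -0.83 to 0.61 over 626 genes of like signal. Hp, which binds haemoglobin for uptake by Cd163, read 443 and 682, 1.54-fold higher, and its log2 difference of 0.62 lay inside the middle 95% of genes of like signal, -1.01 to 1.03. Hp was thus the other member above 0 besides Saa3, while Hpx stood with Apcs slightly below 0. Hp passed a mark of 1.5-fold higher, as did 9.87% of all measured genes, Saa3 among them. Hp and Hpx each rest on 1 probe set.

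The orosomucoids, abundant lipid-binding glycoproteins of adult plasma, gave no measurable signal. Orm1 read 0.91 in wild type and 3.33 in knockout liver, and Orm2 read 5.24 and 32.1. Orm3, which lies between them on the chromosome and is no member, read 11.3 and 8.31. All 3 lay far below the floor on both arrays, so the data give no direction for this family.

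**Figure D3:**
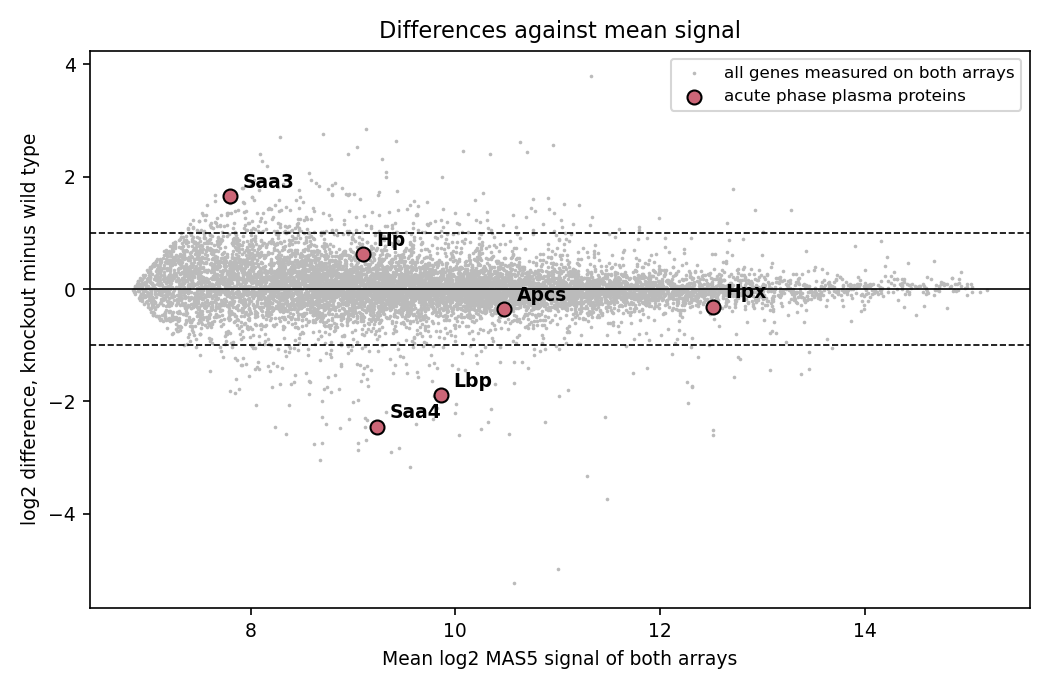
log2 difference of knockout minus wild type (y axis) against the mean log2 signal of both arrays (x axis) for genes measured on both arrays (grey) and the 6 measured acute phase plasma protein genes (red). Dashed lines mark 2-fold. Saa4 and Lbp lie below the lower line, Saa3 above the upper line, and Hp, Apcs and Hpx between them.

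Genes beside the members are here the nearest ones with a probe set of their own, and genes without one were passed over. Among those measured on both arrays, Crp and Col27a1 were past 2-fold and the others within it. The nearest genes with a probe set on either side of the serum amyloid A cluster were Saal1 (1.15-fold higher) and Tph1 (below the floor on both arrays) on the Saa3 side, and Hps5 (1.75-fold higher) and Gtf2h1 (1.16-fold lower) on the Saa2 side. The RefSeq gene order is Saa3, Saa4, Saa1, Saa2, so the members with opposite differences are neighbours. Beside Lbp, Rprd1b and Ralgapb were 1.04-fold and 1.18-fold higher, Tgm2 was 1.64-fold higher, and Adig was below the floor on both arrays. Beside Hp, Dhx38, Txnl4b and Ist1 were 1.11-fold to 1.17-fold higher and Dhodh was 1.08-fold lower. Beside Hpx, Smpd1 was 1.07-fold lower and Arfip2 1.05-fold higher, Trim3 was 1.59-fold higher and Apbb1 at least 1.68-fold higher. Beside the orosomucoids, Col27a1 was 2.17-fold higher, with Kif12 0.58 and Akna 0.75 higher and Whrn 1.34-fold lower, the first 2 on the log2 scale. The other genes beside Apcs, Dusp23, Olfr16 and Fcer1a, were below the floor on both arrays.

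Other genes listed as positive acute phase, that is as increased in inflammation, were mostly lower in the knockout. Not all of them encode plasma proteins: Mt1, Mt2 and Steap4 do not. Of 26 listed genes 21 owned a probe set and 18 were measured. In the knockout 9 of these were 2-fold lower or more, 8 measured on both arrays lay within 2-fold, and 0 were past 2-fold upwards. The remaining gene, Mbl2, was below the floor in the knockout (177 and 46.2), so its at least 1.57-fold lower signal cannot be placed on either side of 2-fold. The median was -0.96, with the 5 genes below the floor on the knockout array taken at their bound. The copper carrier ceruloplasmin (Cp) read 985 and 106, at least 8.75-fold lower, and the lectin Mbl1 read 1422 and 197, 7.23-fold lower. Itih3, a chain that binds hyaluronan, was 3.36-fold lower, and the fibrinogen beta chain Fgb, which the hepatocyte markers below also include, 2.94-fold lower. Il1rn, the interleukin 1 receptor antagonist, was at least 3.17-fold lower on its brightest probe set, with bounds of -0.93 and -0.10 on its other probe sets and of -0.91 where the floor is the 60th percentile. Saa4 and Lbp lay within the range of this list and Saa3 above it: its highest gene (picked by value) was Lcn2 at 0.69, a protein of neutrophils as well as of hepatocytes that the granulocyte list also holds. Hepatocyte marker genes had a median of -0.87 over 18 measured, 8 of them past 2-fold downwards and 0 upwards, and their signals summed to 253864 in wild type against 185888. In whole tissue, fewer hepatocytes and less RNA per hepatocyte cannot be told apart, and the part of either in the Saa4 and Lbp differences was not tested.

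On the brightest probe set of each gene, no receptor or transducer of the acute phase signal had a difference or bound past 2-fold. Of 34 cytokine signalling genes with a probe set, 27 were measured, 25 of them on both arrays. Their differences or bounds were past 2-fold for 0 genes and above 0 for 21, with a median of 0.26. Among all 11397 measured genes 2.13% were at least 2-fold lower and 3.27% at least 2-fold higher, and 5263 lay below 0. A list of this size would thus hold few genes past 2-fold at those shares. Il6ra read 108 in wild type, below the floor, and 175 in the knockout, at least 1.56-fold higher, and a second probe set read 93.5 and 113.2. The shared receptor chain Il6st was 0.44 higher on the log2 scale, while another of its probe sets measured on both arrays was at -0.08. Stat3 lay at -0.47 on its brightest probe set and at -0.21 on another, and a dimmer one had a bound of -1.05, at least 2.08-fold lower. The bacterial lipoprotein receptor Tlr2 (1.63-fold), the interleukin 1 receptor Il1r1 (1.57-fold) and the NF-kB inhibitor Nfkbia (1.52-fold) were higher, and the NF-kB subunit gene Nfkb2 was 1.49-fold lower. With the floor at the 60th percentile the knockout signal of Nfkb2 lay below it, which left only a bound of -0.08 in log2. Il6 and Tnf themselves, named after their values were seen, did not reach the floor on either array (26.9 and 19.0 for Il6, 13.9 and 6.83 for Tnf).

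Among 17 measured transcription factors that act on acute phase promoters, 15 lay within 2-fold, 1 was lower and 1 higher beyond it. The median was 0.29, but 0.04 where each gene was the median over its probe sets. The C/EBP factors, which bind the pattern found in Saa3, Saa4 and Hpx, lay on both sides of 0. Cebpa, the factor of mature hepatocytes, had signals of 1174 and 578, which is -1.02 in log2, or -0.96 with 50 added to each signal. Cebpb read 616 and 1086 (1.76-fold higher) and Cebpd 342 and 581 (1.70-fold higher), the forms that inflammation induces. Hnf4a was lower at -0.55. The glucocorticoid receptor gene Nr3c1 was 0.35 higher on its probe set with the brightest mean, while others were at -0.29 and -0.20, so it has no direction here. The bile acid receptor Nr1h4 was the gene past 2-fold upwards, at 3.66-fold, and Foxa2 was 1.77-fold higher.

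Partners that receive the members' proteins or their cargo lay mostly above 0. Of 11 measured, 2 were past 2-fold upwards and 0 downwards, and the median was 0.34. Cd14, the receptor to which Lbp delivers lipopolysaccharide, read 133 in wild type and 332 in knockout liver, 2.49-fold higher, opposite to Lbp. With the floor raised to the 60th percentile, the wild-type signal of Cd14 lay below it, which left a bound of at least 0.80 in log2. Ly96, which joins Cd14 and Tlr4 in the lipopolysaccharide receptor, was 0.56 higher on the log2 scale. Its wild-type signal also lay below that higher floor, which left a bound of at least 0.11. Fpr2, a receptor of serum amyloid A on phagocytes, read 219.9 and 477, 2.17-fold higher, or 0.96 on the log2 scale with 50 added to each signal. Fcgr1, an immunoglobulin receptor to which pentraxins also bind, was 0.59 higher on the log2 scale without that addition. Of the heme pathway, Lrp1 was lower at -0.34, a second probe set being level at 0.01, and the heme-degrading enzyme Hmox1 was 1.42-fold higher. The haemoglobin-haptoglobin receptor Cd163 did not reach the floor on either array (17.4 and 27.8).

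Beside Saa3 and Hp, granulocyte, macrophage, mesenchymal, mesothelial and endothelial markers had medians above 0, and erythroid markers did not. All 16 measured granulocyte markers lay above 0 and 7 of them past 2-fold. Their median was 0.98, and the 17 with a probe set summed to signals of 38105 (wild type) and 79125 (knockout). S100a9 was 2.65-fold and Fcnb 3.49-fold higher. Of 14 measured macrophage markers 11 were above 0 and Marco alone was past 2-fold (2.71-fold). The other 3 were below 0, with Timd4 the lowest at 1.68-fold lower. The median was 0.29 and the summed signals of all 16 were 19530 and 25071. Of 17 stellate and mesenchymal markers 16 were above 0 and 10 of them past 2-fold, the median was 1.13 and the sums were 19519 and 40787. Mesothelial markers had a median of 0.43 over 11 measured, 9 of them above 0, with summed signals of 9197 and 12504. Past 2-fold upwards were 2 of them, Krt19 (at least 8.72-fold) and Tcf21 (2.64-fold). This list includes the keratins Krt8, Krt18 and Krt19, which are not confined to mesothelium, so it does not measure mesothelial cells alone. Of 5 adipocyte markers with a probe set, Adipoq, Lep, Retn and Pparg stayed under the floor on each array and Fabp4 read 749 and 715. Endothelial markers had a median of 0.43 over 13 and erythroid markers one of -0.09 over 8. The part of any of these cells in the Saa3 and Hp differences was not tested.

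**Figure D4:**
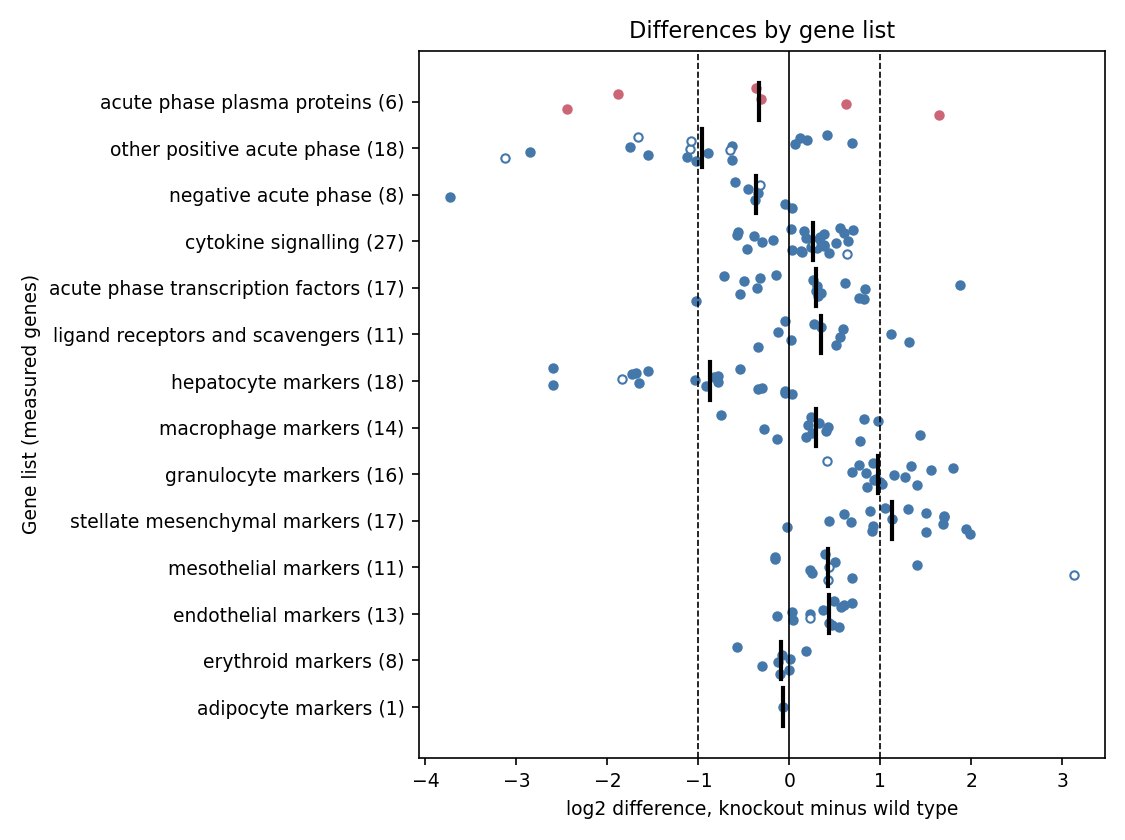
log2 difference of knockout minus wild type (x axis) for each measured gene of each list (y axis, number of measured genes in parentheses), with the list median as a black bar and 2-fold as dashed lines. Filled circles are genes measured on both arrays and open circles are bounds for genes below the floor on 1 array. The acute phase plasma proteins (red) reach from Saa4 at -2.45 to Saa3 at 1.65, the other positive acute phase genes have a median of -0.96 and the granulocyte markers one of 0.98.

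**Figure D5:**
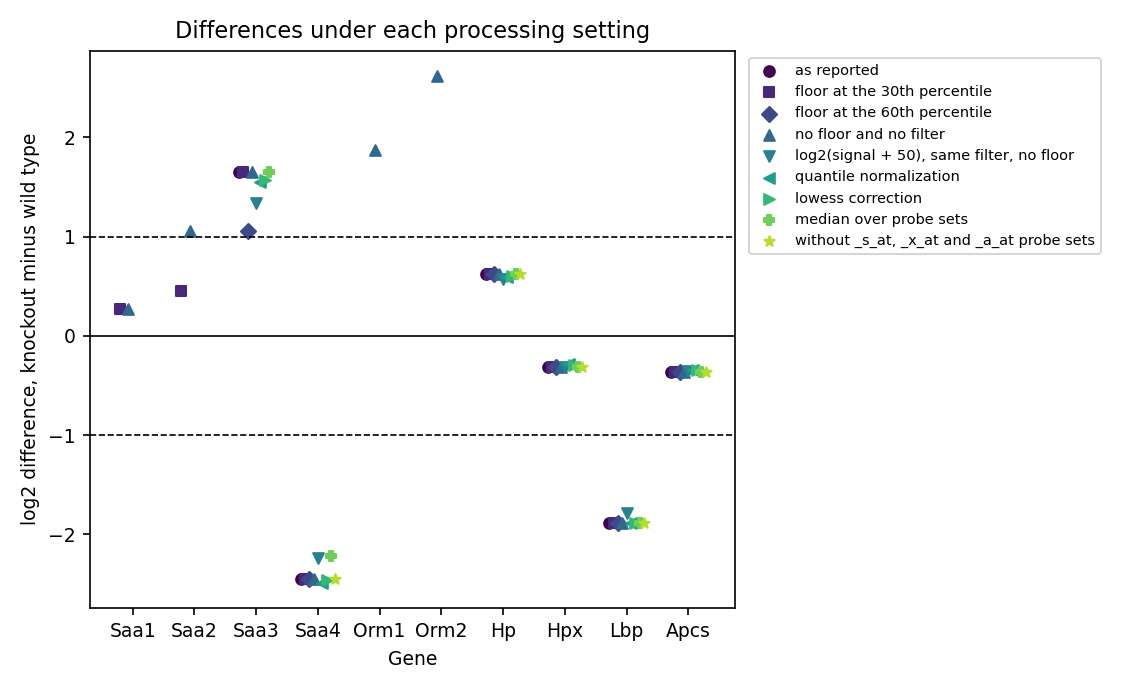
log2 difference of each member (y axis, genes on the x axis) as reported and under 8 other ways of setting the floor, scaling the arrays or representing a gene, with 2-fold as dashed lines. Saa4 stays between -2.48 and -2.22 and Lbp between -1.89 and -1.78. Saa3 ranges from 1.05, a bound with the floor at the 60th percentile, to 1.65. Saa1, Saa2, Orm1 and Orm2 have values only where the floor is lowered or removed.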

How the data were processed

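Biotin-labelled cRNA from liver RNA of each genotype was hybridized to an Affymetrix array, per the labels' protocols. The authors deposited 1 intensity per probe set and array, made with MAS5 as the submitters' processing notes name it; the version and detection calls are not given in the sources used here. The trimmed mean, with 2% left out at each end, was 500.0 on both arrays, so values were used as deposited. Of 45101 probe sets, 64 controls were left out, 34945 of the others had 1 gene symbol, 932 several and 9160 none. Gene identifiers of 34741 were found in RefSeq's GRCm38.p6 table, which changed 0 symbols.

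Signals below 112.6 were raised to it before log2. Each gene was represented by whichever of its probe sets was brightest by mean log2 signal, and 2-fold was the size mark. A gene below the floor on 1 array has a bound, written "at least". There are no replicates, and the number of arrays limits the precision. MAS5 subtracts mismatch signal, so dim probe sets scatter. Motifs were matched in RefSeq promoters, and the result of 1 motif is not reported here; protein sequences were not used here. The counting step was tested on simulated arrays in which only bright probe sets were changed, by more than 2-fold. That test does not cover dim probe sets or differences near 2-fold. Scripts ran in Python 3.11.15 with pandas 2.3.3 and numpy 2.4.6; lowess came from statsmodels 0.14.6 and the plots from matplotlib 3.10.9.

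The members and lists were chosen with earlier results of these data known. Named genes were all members, up to 5 genes per list by size of difference, their neighbours, the 3 genes nearest in signal to the extreme members, and a set of signalling genes named whatever their values. Alternatives were other floors, no floor, an added 50, quantile and lowess scaling, and medians over probe sets. Others left out probe sets ending in _s_at, _x_at or _a_at, or used other size marks.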

Additional observations from a re-analysis of the deposited data

How the results depend on the processing

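No paired analysis was possible because each genotype has 1 array. Over the main setting and 8 other floors, scalings and gene rules, Saa4 ran from -2.48 to -2.22 and Lbp from -1.89 to -1.78 in log2. Hpx ran from -0.31 to -0.28, Apcs from -0.36 to -0.34 and Hp from 0.57 to 0.62. Saa3 ran from 1.05 to 1.65 in the 8 settings that give it a value. The 1.05, from the floor at the 60th percentile, is a bound. The median of the measured members depended on the floor: it was -0.022 over 8 members with the floor at the 30th percentile, which lets in Saa1 and Saa2, and 0.45 over all 10 with no floor and no filter, where Orm1 and Orm2 also enter and 4 members were at least 2-fold higher, against 13.0% of all genes. Without probe sets ending in _s_at, _x_at or _a_at, 0 members were higher, since the only Saa3 probe set is left out. At a 1.5-fold mark 2 members were higher, Hp joining Saa3, against 9.87% of all genes. The other positive acute phase median ran from -1.09 to -0.63. With 1 array per genotype no spread between animals can be set against any of these differences, and signals below the floor give no direction.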

Other observations

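Negative acute phase genes, whose plasma products decrease in inflammation, were also below 0 in the knockout. Of 8 measured, 7 were below 0 and 1 was at least 2-fold lower, and the median was -0.36. Fetub was below the floor in the knockout (141 and 64.5) and entered the median at its bound. Its at least 1.25-fold lower signal cannot be placed on either side of 2-fold. Ahsg (fetuin-A) was 13.2-fold lower, with signals of 10437 and 788. Over the settings 0 to 2 genes of the list were at least 2-fold lower, 0 where the only Ahsg probe set, ending in _a_at, is left out. Itih2 was 1.51-fold, the corticosteroid carrier Serpina6 1.37-fold, the retinol carrier Rbp4 1.30-fold and the apolipoprotein Apoa1 1.27-fold lower. The medians of the other positive acute phase genes (-0.96) and of the negative ones (-0.36) therefore did not lie on opposite sides of 0. In these lists 5 and 1 measured genes were above 0.

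The genes whose pair of log2 signals over the 2 arrays was nearest to that of Saa4 were Ftcd, Gnmt and Acox2, enzymes of histidine breakdown, of glycine methylation and of peroxisomal side-chain oxidation, at distances of 0.16, 0.17 and 0.19 log2 units. Those nearest to Saa3 were Lhfp, Rps27 and Atp11a, at 0.08, 0.18 and 0.19. With 2 arrays such likeness is a description of signals only.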
